A study of Mus musculus with 6 samples.

Results

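The genes described here encode the machinery of DNA replication and cell division. They were chosen by symbol from a deposited table of gene expression in mouse embryonic fibroblasts (MEFs), 46 of 26231 genes, by a rule that uses no measured value. All 46 were in the table, and 45 of them passed the filter on low values (at least 1 RPKM in at least 3 libraries) and were tested. The cells were FVB embryonic fibroblasts, from embryos of about 14 days per the labels, immortalized with SV40 large T antigen and carrying a floxed Nf2 gene. MEF Nf2fl/fl cells had received a control lentivirus and are labelled WT, and MEF Nf2-/- cells had received a Cre lentivirus and are labelled Nf2 KO. Both lines were kept for 24 h in serum-free medium before RNA was taken, and 3 libraries of each line were sequenced. Both lines share the replicate numbers 1, 2 and 3, and the library marks A, B and 2018 go with those numbers. Nothing in the labels says that replicates came from separate embryos or derivations, so each line is treated as 1 cell line and p-values measure only the spread between these libraries, which may be technical.

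A cell that leaves the resting state switches on these genes in 2 waves. In late G1, E2F factors released from the retinoblastoma proteins turn on the genes of DNA synthesis, such as the MCM helicase subunits and ribonucleotide reductase. In G2, MYBL2 (B-Myb) and FOXM1 turn on the mitotic genes, such as cyclin B, CDK1 and the spindle motors. Serum withdrawal stops normal fibroblasts in G1, whereas SV40 large T antigen binds the retinoblastoma proteins and p53. In RNA from a whole culture, fewer dividing cells and less of these RNAs in each cell cannot be told apart.

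The promoters of these genes were searched for letters known from the 2 waves, and 5 are shown as examples, chosen after their values were seen. Each is the window from 250 bases before to 50 bases after the start site of the gene, written 5′ to 3′ on the strand of the gene, from the RefSeq tables on GRCm38.p6. Capitals mark the CHR (cell cycle genes homology region, searched as TTTGAA or TTCGAA), the CCAAT box (CCAAT) and the E2F site (TTTGGCGC, TTTCGCGC, TTTCCCGC or TTTGCCGC), each searched on both strands. Cdk1 (chr10:69352863-69353162, minus strand) encodes the mitotic kinase, Kif11 (chr19:37376132-37376431, plus strand) the spindle motor Eg5 and Ccnb2 (chr9:70421505-70421804, minus strand) cyclin B2. Cdc6 (chr11:98907901-98908200, plus strand) and Mcm5 (chr8:75109259-75109558, plus strand) stand for replication licensing and the replicative helicase.
Cdk1: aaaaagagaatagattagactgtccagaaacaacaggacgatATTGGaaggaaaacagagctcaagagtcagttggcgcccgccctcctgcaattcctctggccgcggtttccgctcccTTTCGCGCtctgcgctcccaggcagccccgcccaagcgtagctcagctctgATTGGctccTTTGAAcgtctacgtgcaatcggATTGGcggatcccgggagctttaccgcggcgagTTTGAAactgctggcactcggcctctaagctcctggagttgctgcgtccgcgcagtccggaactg
Kif11: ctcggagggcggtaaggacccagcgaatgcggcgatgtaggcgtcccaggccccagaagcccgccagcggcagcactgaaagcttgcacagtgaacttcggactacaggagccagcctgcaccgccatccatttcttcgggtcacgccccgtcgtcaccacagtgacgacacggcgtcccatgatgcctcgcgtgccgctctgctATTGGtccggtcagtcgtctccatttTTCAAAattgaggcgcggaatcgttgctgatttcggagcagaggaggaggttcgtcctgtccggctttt
Ccnb2: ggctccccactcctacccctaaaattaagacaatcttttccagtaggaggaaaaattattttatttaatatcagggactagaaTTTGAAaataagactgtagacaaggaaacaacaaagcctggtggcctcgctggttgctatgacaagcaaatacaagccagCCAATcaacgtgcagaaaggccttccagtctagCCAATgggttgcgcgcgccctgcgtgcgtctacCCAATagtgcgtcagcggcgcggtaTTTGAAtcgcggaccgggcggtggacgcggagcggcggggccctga
Cdc6: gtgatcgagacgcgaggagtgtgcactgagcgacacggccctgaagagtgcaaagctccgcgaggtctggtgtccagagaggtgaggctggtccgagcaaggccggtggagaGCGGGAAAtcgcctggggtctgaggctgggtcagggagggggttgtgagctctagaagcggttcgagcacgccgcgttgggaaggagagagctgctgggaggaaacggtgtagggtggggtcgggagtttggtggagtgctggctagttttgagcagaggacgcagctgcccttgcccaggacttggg
Mcm5: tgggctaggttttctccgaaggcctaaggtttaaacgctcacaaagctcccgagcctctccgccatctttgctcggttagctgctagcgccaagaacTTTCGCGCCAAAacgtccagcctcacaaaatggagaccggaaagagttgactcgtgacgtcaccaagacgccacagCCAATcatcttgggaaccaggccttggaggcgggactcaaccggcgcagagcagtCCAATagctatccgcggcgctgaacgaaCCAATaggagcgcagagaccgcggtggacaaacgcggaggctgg
The 3 mitotic promoters hold a CHR within 19 bases of the start site, with a CCAAT box upstream of it. In Cdk1 the nearest CHR lies 15 bases before the start site and a CCAAT box 48 bases before it, and in Kif11 these distances were 19 and 45 bases. Cdk1 also holds an E2F match, 131 bases before the start site. The Mcm5 promoter holds an E2F match that reads on both strands, as 2 overlapping matches, and no CHR, and the Cdc6 promoter holds an E2F match alone.

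A promoter was found for 36 of the 46 genes. No promoter was matched for Ccna2, Foxm1, Ccne2, Gmnn, Mcm4, Gins2, Cdc25c, Kif20a, Aurkb and Tpx2. Mitotic genes here are the G2/M cyclins and kinases, the spindle checkpoint and kinetochore genes and the motors, with Mki67 and Top2a. The genes of S phase and its control are the rest, including the G2 factor Mybl2. Of 17 mitotic genes with a promoter, 14 held a CHR (82.4%) and 16 a CCAAT box (94.1%), and all 14 with a CHR also held a CCAAT box. Of 19 genes of S phase and its control, 3 held a CHR (15.8%), 11 a CCAAT box (57.9%) and 8 an E2F match (42.1%), whereas 1 of the 17 mitotic genes, Cdk1, held an E2F match. Among all 27025 genes with a promoter in the table, 21.7% held a CHR, 41.1% a CCAAT box, 2.60% an E2F match and 8.61% both a CHR and a CCAAT box. A match of letters is a description, and none was tested for binding.

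**Figure D1:**
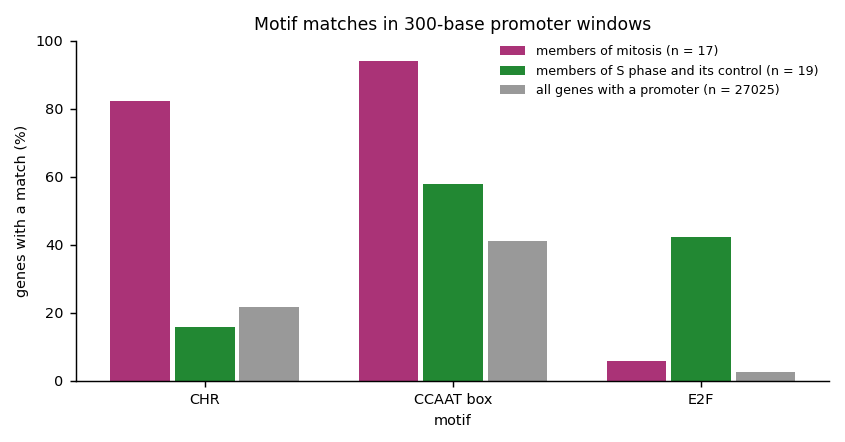
Percent of genes whose 300-base promoter window holds a CHR, a CCAAT box or an E2F match, for 17 mitotic genes, 19 genes of S phase and its control, and all 27025 genes with a promoter. The CHR bar is at 82.4% for mitotic genes and 15.8% for S phase genes, and the E2F bar at 5.88% and 42.1%.

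Nf2, which encodes Merlin, had 14.3, 13.7 and 13.1 RPKM in the MEF Nf2fl/fl replicates 1 to 3 and 15.4, 12.9 and 13.9 RPKM in the MEF Nf2-/- replicates. RPKM is the number of reads per kilobase of exon, scaled to the size of the library. The libraries labelled Nf2 KO did not hold less Nf2 RNA, and the directions below follow the labels. The depth read from the steps between values ranged from 13400000 to 19300000 reads in replicates 1 and 2 and was 61100000 and 72900000 reads in replicate 3, and the tested cell division gene with the fewest reads in any library still had 315. Both replicate 2 libraries stood apart from the other 4, with 30.6% of all 11067 tested genes past the threshold between them, so each result is also given by replicate. Among fibroblast markers Vim was at 536 to 882 RPKM, whereas Pdgfra was at 0.657 to 1.42 RPKM and Dcn at or under 0.133 RPKM in the libraries labelled MEF Nf2-/-, against 5.22 to 12.3 and 1.60 to 4.01 RPKM in MEF Nf2fl/fl.

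The cell division genes were expressed in all 6 serum-starved libraries. Their median level, as the mean over libraries, was 24.1 RPKM against 7.62 RPKM for all tested genes, and 42 of the 45 lay above that median of all genes. Pcna, the sliding clamp that holds DNA polymerase on its template, was the highest of the replication fork genes, with 115, 123 and 115 RPKM in MEF Nf2fl/fl against 123, 124 and 127 RPKM in MEF Nf2-/-. The 6 MCM subunits, which together form the helicase ring, ranged from 27.0 RPKM (Mcm2) to 73.5 RPKM (Mcm4) in single libraries. Top2a, the topoisomerase that untangles sister chromatids, had 40.5, 44.7 and 37.9 RPKM in MEF Nf2fl/fl against 38.2, 45.2 and 44.3 RPKM in MEF Nf2-/-. The proliferation marker Mki67 stayed between 22.5 and 25.4 RPKM in all 6. The checkpoint kinase Chek1 and the repair gene Brca1 were low, at 3.63 to 5.45 and 5.22 to 6.27 RPKM. The only gene under the filter was E2f2, an activator of the G1/S wave, with 1.07, 0.562 and 0.833 RPKM in MEF Nf2fl/fl against 0.963, 0.573 and 0.863 RPKM in MEF Nf2-/-. Its relative E2f1 was at 17.7 to 22.3 RPKM.

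**Figure D2:**
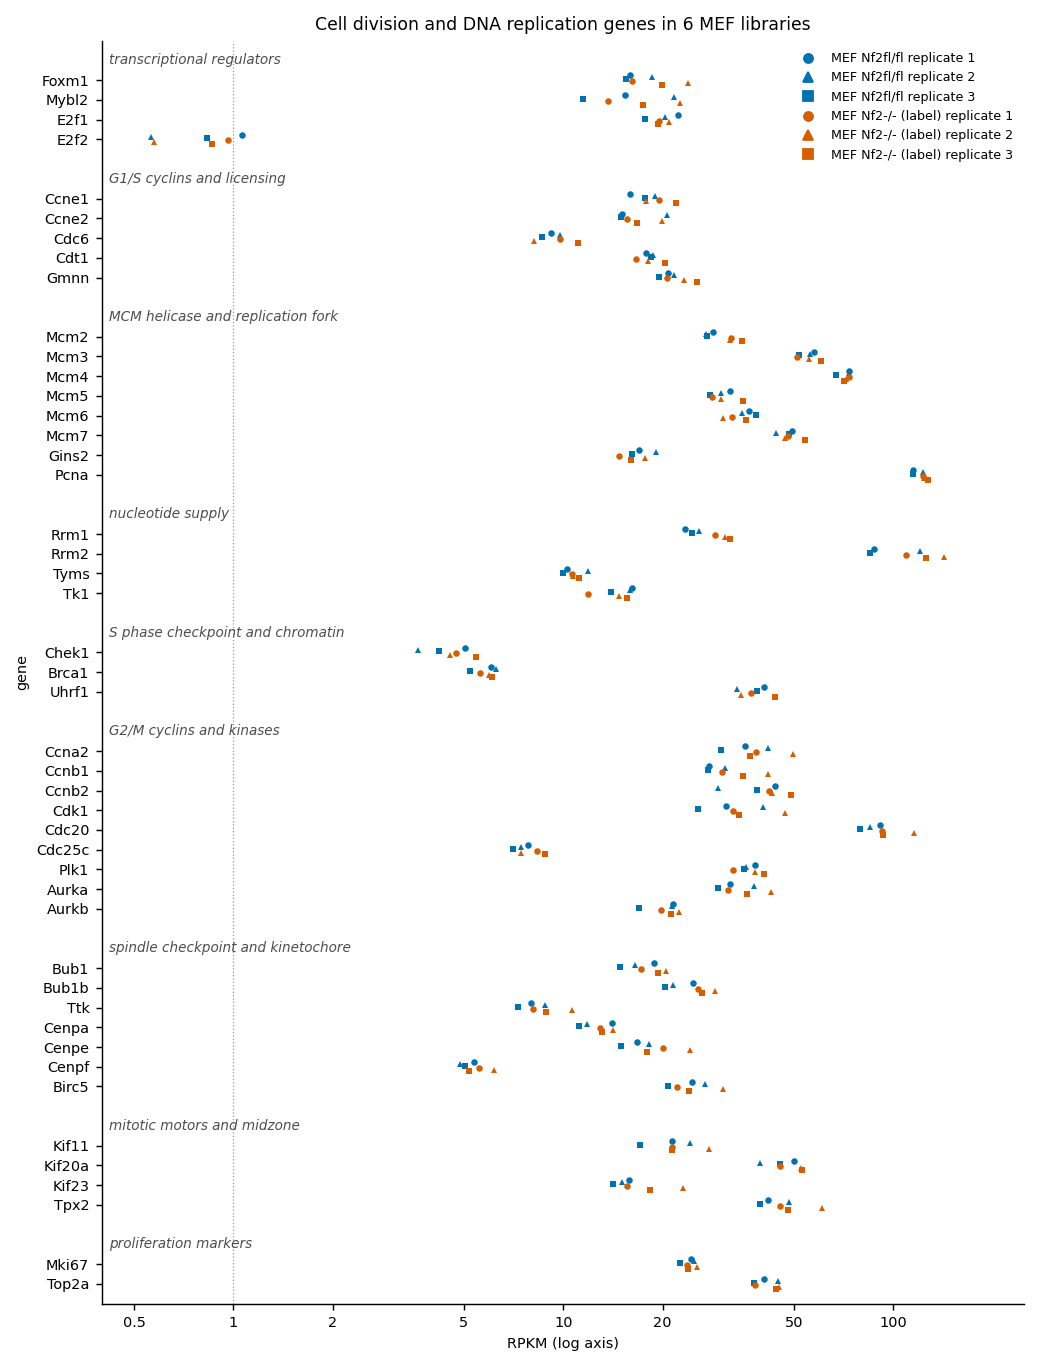
RPKM on a log axis for each of the 46 genes in each library, grouped by role. Colour gives the line, shape gives the replicate, and the dotted line marks the filter of 1 RPKM, below which lie most E2f2 values. For most genes the 6 points lie close together, and apart from E2f2 they run from Chek1 at 3.63 RPKM to Rrm2 at 142 RPKM.

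The first comparison asked whether the line labelled MEF Nf2-/- carried more or less of this RNA than MEF Nf2fl/fl. None of the 45 genes passed the threshold (limma, Benjamini-Hochberg adjusted p under 0.05 over all 11067 genes), where 1.06% of all genes did. An unadjusted p under 0.05 in limma was found for 3 of the 45, and for 1097 of all 11067 genes. The count past the threshold was also 0 without limma's trend and robust settings. The log2 fold changes, on the scale of log2(RPKM + 1), ran from -0.15 to 0.38, and no bound of a 95% interval went beyond -0.46 or 0.78. Most of the small differences pointed up, with 41 of 45 genes higher in MEF Nf2-/- and a median log2 fold change of 0.12, against 47.9% of all genes higher and a median of -0.0078. This tilt was uneven between replicates. In replicate 1, 20 of 45 genes were higher in MEF Nf2-/- (median difference -0.020), in replicate 2, 33 were (0.091), and in replicate 3, the deepest pair, 43 were (0.25). Without MEF Nf2fl/fl replicate 3 the count fell to 31 and the median to 0.066, and without both replicate 3 libraries to 27 and 0.052. Without MEF Nf2-/- replicate 2 they were 37 and 0.076, and without both replicate 1 libraries 43 and 0.19.

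Ribonucleotide reductase makes the deoxynucleotides for DNA synthesis, and its large subunit gene is Rrm1. Rrm1 had 23.3, 25.9 and 24.6 RPKM in MEF Nf2fl/fl against 28.8, 31 and 32.1 RPKM in MEF Nf2-/-. The 3 libraries labelled MEF Nf2-/- all lay above the others, and the log2 fold change was 0.31 ± 0.090 (SE, n = 3 and 3; limma adjusted p = 0.256). With the replicate number as a block Rrm1 passed the threshold (limma adjusted p = 0.0485), the only 1 of the 45 genes to do so, where 7.53% of all genes did. In that fit 11 of the 45 had an unadjusted p under 0.05, as did 2563 of all 11067 genes, a share near that of the 45. All 11 were higher in MEF Nf2-/-. Of all genes past the threshold in that fit 331 were higher and 502 lower. The small subunit gene Rrm2 had 87.6, 120.2 and 84.8 RPKM in MEF Nf2fl/fl against 109.7, 142 and 126 RPKM in MEF Nf2-/-. It was higher in each pair but the ranges overlapped (log2 fold change 0.38 ± 0.17, SE, limma adjusted p = 0.556).

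Apart from Rrm1, 3 genes had all MEF Nf2-/- libraries above all MEF Nf2fl/fl libraries, Mcm2, Cdc20 and Bub1b, named here after their values were seen. That is 4 of 45, where 15.1% of all genes did not overlap in either direction and 7.60% lay higher in MEF Nf2-/-. Mcm2, the helicase subunit, had 28.4, 27.0 and 27.2 RPKM in MEF Nf2fl/fl against 32.2, 32.0 and 34.7 RPKM in MEF Nf2-/- (log2 fold change 0.25 ± 0.084, SE, limma adjusted p = 0.343). The other helicase subunits did not share this gap, and the median over the 8 helicase and fork genes was 0.037. Bub1b encodes BubR1 of the spindle checkpoint, which holds cells in metaphase, and it had 24.7, 21.5 and 20.3 against 25.6, 28.8 and 26.4 RPKM (0.27 ± 0.11, SE, limma adjusted p = 0.445). Cdc20, the activator of the anaphase-promoting complex, had 91.4, 84.9 and 79.5 against 92.8, 115 and 93.0 RPKM (0.23 ± 0.12, SE, limma adjusted p = 0.674). In Bub1b and Cdc20 the lowest MEF Nf2-/- library lay just above the highest MEF Nf2fl/fl library.

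By role, the median log2 difference between the lines was 0.22 for the 9 G2/M cyclin and kinase genes, 0.20 for the 4 motor genes, 0.17 for the 7 spindle checkpoint and kinetochore genes and 0.16 for the 4 nucleotide supply genes. It was 0.059 for the 5 G1/S genes and 0.023 for the 3 S phase checkpoint and chromatin genes. All 20 genes of the 3 mitotic groups were higher in MEF Nf2-/- in the fit, and none passed the threshold. By replicate, 10 of the 20 were higher in replicate 1, 19 in replicate 2 and 20 in replicate 3. The sum of 10 fibroblast markers ran from 1855 to 2554 RPKM in MEF Nf2fl/fl and from 1444 to 1876 RPKM in MEF Nf2-/-, with overlap. The lowest sum of each line was that of its replicate 2 library. Of 9 tested markers 8 were lower in MEF Nf2-/-, and 3 of them passed the threshold (Pdgfra, Dcn and Fn1), where 1.06% of all genes passed. With the replicate block 5 of the 9 passed, where 7.53% of all genes did, and after quantile normalization 2 did. The part of this shift in the differences above was not tested.

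**Figure D3:**
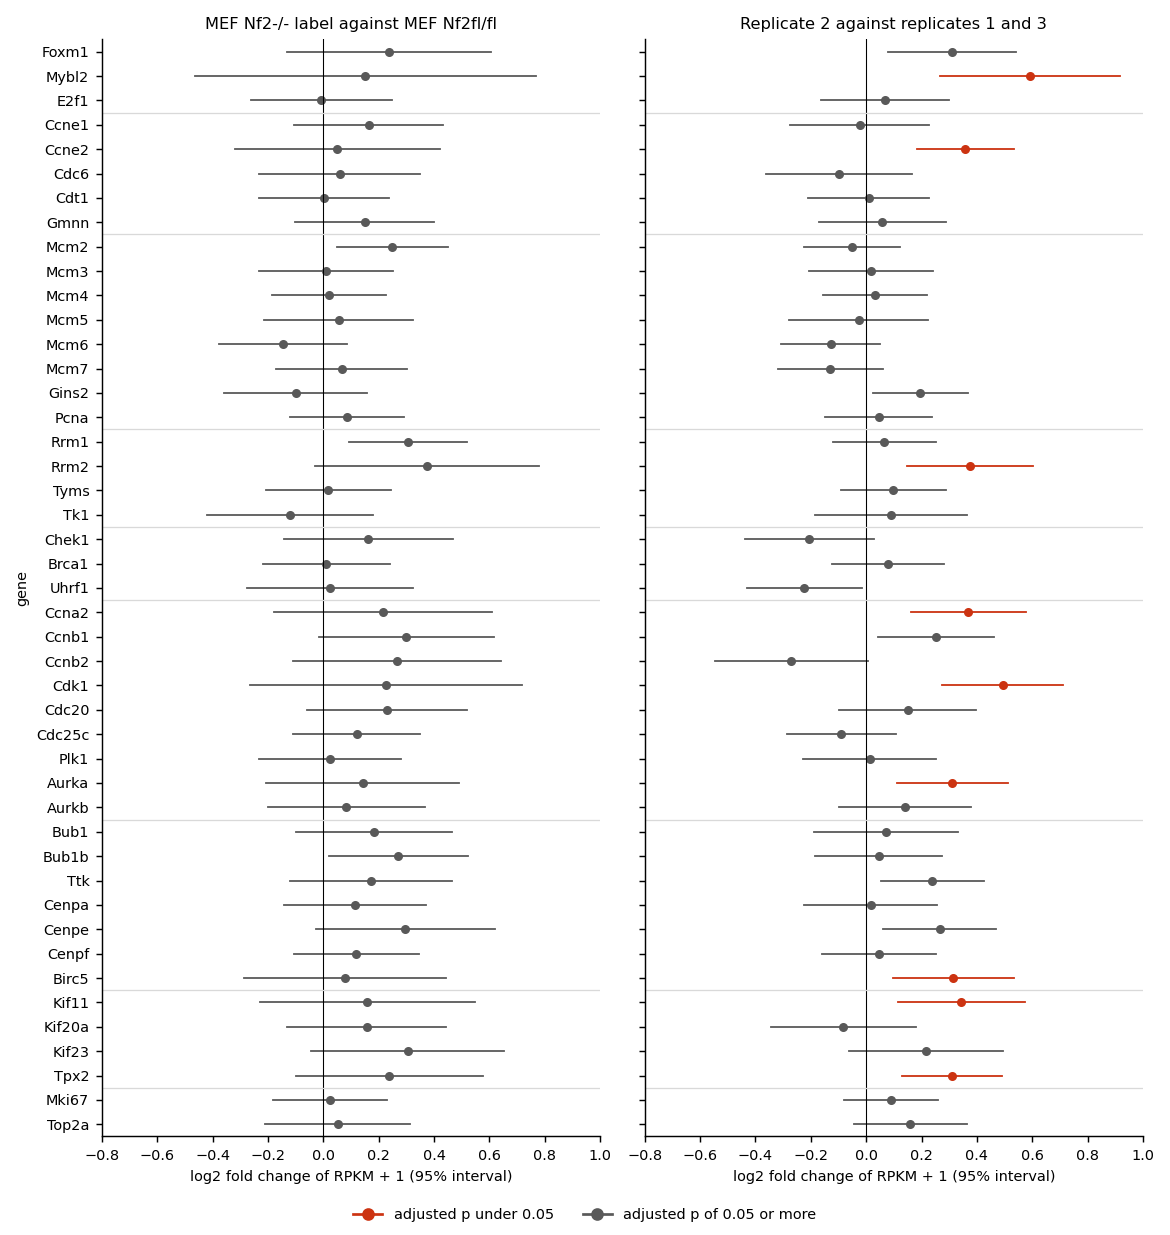
Log2 fold change of RPKM + 1 with its 95% interval for the 45 tested genes, between the lines (left, MEF Nf2-/- label against MEF Nf2fl/fl, n = 3 and 3) and between replicates (right, replicate 2 against replicates 1 and 3, n = 2 and 4, adjusted for line). Red marks an adjusted p under 0.05 in limma. No gene is red on the left and 9 are red on the right, all above 0.

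The second comparison set the 2 libraries of replicate 2 (mark B) against the 4 of replicates 1 and 3 (marks A and 2018), with the line as a term. This fit counts all 6 libraries as independent. Same-numbered libraries deviated together, with correlations of 0.55, 0.82 and 0.52 for replicates 1, 2 and 3. The SEs and p-values of this comparison may therefore be too small. Of the 45 genes 9 passed the threshold and all were higher in replicate 2, namely Mybl2, Ccne2, Rrm2, Ccna2, Cdk1, Aurka, Birc5, Kif11 and Tpx2. That is 9 of 45 where 30.6% of all genes passed, with 10.8% higher and 19.8% lower. The median log2 fold change of the 45 genes was 0.071 and 34 were higher, against a median of -0.078 and 39.0% higher for all genes. Of all genes that passed, 1195 were higher and 2191 lower, and when each library was first centred on its median the split became 1698 and 1536. On that scale the median over all genes was -0.0061 and that of the 45 genes 0.14, with 37 higher and 14 past the threshold, all higher, where 29.2% of all genes passed. With 1 library left out the median of the 45 ranged from 0.046 (without MEF Nf2-/- replicate 1) to 0.11 (without MEF Nf2fl/fl replicate 1). In 11 of the 45 genes both replicate 2 libraries lay above the other 4, where 16.8% of all genes did. In 2 (Mcm7 and Uhrf1) they lay below, where 29.8% did.

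These calls rested on having both replicate 2 libraries, since with 1 of them left out the spread within replicate 2 cannot be measured. The median log2 fold change of the 45 genes was 0.11 without MEF Nf2fl/fl replicate 2 and 0.10 without MEF Nf2-/- replicate 2. In these fits the lone replicate 2 library is assumed to vary like the others. Without MEF Nf2fl/fl replicate 3 only Ccne2, Cdk1 and Mybl2 passed, where 20.9% of all genes did, and without both replicate 3 libraries those 3 and Rrm2, where 24.3% did. Leaving out any of the other 3 libraries left 7 to 9 genes past the threshold, 6 to 8 of them among the 9, where 24.5% to 30.5% of all genes passed. The step was also not equal in direction across genes: 24 were higher in replicate 2 in both lines, 6 lower in both, and 15 differed in direction between the lines. No gene passed a test of the difference between the lines in this step (limma, 0 of 45 and 0 of 11067, with 1 and 313 at an unadjusted p under 0.05), the 1 being Cdc6, which loads the MCM helicase on origins.

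Mybl2 (chr2:163054687-163084688, plus strand), the B-Myb factor of the G2 wave, had 15.4, 21.7 and 11.5 RPKM in MEF Nf2fl/fl against 13.7, 22.6 and 17.4 RPKM in MEF Nf2-/-. Both replicate 2 values were the highest, and the log2 fold change was the largest of the 45 genes at 0.59 ± 0.14 (SE, n = 2 and 4, limma adjusted p = 0.0198). Up to 21.1% of its 31-base stretches are also found in other genes, chiefly a gene model named Gm3320. Its partner in the G2 wave, Foxm1, had 16.0, 18.6 and 15.5 RPKM in MEF Nf2fl/fl against 16.2, 23.9 and 20 RPKM in MEF Nf2-/-, and missed the threshold (0.31 ± 0.099, SE, limma adjusted p = 0.0502), which it passed after median centring (adjusted p = 0.033) and quantile normalization, with a pseudocount of 0.1, with a filter of 5 RPKM and without MEF Nf2-/- replicate 3. Ccne2, the cyclin E2 that drives entry into S phase with CDK2, had 15.1, 20.7 and 15.0 against 15.6, 19.9 and 16.7 RPKM. It rose by 0.36 ± 0.075 (SE, limma adjusted p = 0.0132), and its exons overlap Ints8 on the other strand over 17.4% of their length. Ccne1, the other cyclin E, did not follow, with 18.9 and 17.8 RPKM in replicate 2 and 16.0 to 21.9 RPKM in the other libraries.

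Among the mitotic kinases and cyclins 3 of 9 passed, a share near the 30.6% of all genes. All 3 were higher, where 10.8% of all genes passed as higher. Cdk1, whose promoter holds letters of both waves, had 31.2, 40.4 and 25.7 RPKM in MEF Nf2fl/fl against 32.7, 47.2 and 34.0 RPKM in MEF Nf2-/-, a log2 fold change of 0.49 ± 0.093 (SE, limma adjusted p = 0.00975). Its S phase and G2 partner Ccna2 (cyclin A2) had 35.5, 41.6 and 30.1 against 38.4, 49.9 and 36.9 RPKM (0.37 ± 0.089, SE, limma adjusted p = 0.0208). Aurka, the centrosome kinase, had 32.1, 37.9 and 29.5 against 31.6, 42.7 and 36.0 RPKM (0.31 ± 0.085, SE, limma adjusted p = 0.0314). In all 3 the replicate 2 libraries were the top 2 of 6. Ccnb2 lay lower in replicate 2 of both lines (by -0.46 in MEF Nf2fl/fl and -0.078 in MEF Nf2-/- on the log2 scale), with 43.7, 29.5 and 38.6 RPKM in MEF Nf2fl/fl against 41.9, 42.8 and 48.9 RPKM in MEF Nf2-/-. Its fold change of -0.27 ± 0.12 did not pass (SE, limma adjusted p = 0.120), and its promoter holds the same CHR and CCAAT letters as that of Cdk1.

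Of the spindle genes, Birc5 (survivin, of the chromosomal passenger complex) had 24.6, 26.9 and 20.8 RPKM in MEF Nf2fl/fl against 22.2, 30.6 and 24.0 RPKM in MEF Nf2-/- (0.32 ± 0.094, SE, limma adjusted p = 0.0407). Kif11 had 21.4, 24.2 and 17.1 against 21.3, 27.6 and 21.3 RPKM (0.34 ± 0.098, SE, limma adjusted p = 0.0356). Tpx2, which activates Aurora A on the spindle, had 41.6, 48.5 and 39.5 against 45.4, 60.7 and 48.1 RPKM (0.31 ± 0.077, SE, limma adjusted p = 0.0230). In each of them the replicate 2 library was the highest of its line, by a wider margin in MEF Nf2-/-. The kinesin genes Kif20a and Kif23 and the kinetochore genes Cenpa, Cenpe and Cenpf did not pass. Cenpe did after median centring (adjusted p = 0.024) and quantile normalization and without MEF Nf2fl/fl replicate 1 or both replicate 1 libraries.

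None of the 8 helicase and fork genes passed, where 30.6% of all genes did. An unadjusted p under 0.05 in limma was found for 1 of the 8, and for 4896 of all 11067 genes. The median of the 8 was -0.0053 and turned to 0.067 with median centring. On that scale Gins2, of the helicase complex, passed (0.27, limma adjusted p = 0.0372), where 29.2% of all genes did. Before centring Pcna differed by 0.045 ± 0.082 (SE, limma adjusted p = 0.702). Of the 4 nucleotide supply genes 1 passed, as higher, where 30.6% of all genes passed and 10.8% were higher. This was Rrm2, at 0.37 ± 0.097 (SE, limma adjusted p = 0.0266), and 12.8% of its 31-base stretches occur in other genes. Its RPKM values above were highest in replicate 2 of each line, although MEF Nf2-/- replicate 3 lay above MEF Nf2fl/fl replicate 2. Uhrf1, which carries DNA methylation through replication, had 40.7, 33.7 and 38.8 RPKM in MEF Nf2fl/fl against 37.0, 34.5 and 43.7 RPKM in MEF Nf2-/-. Both replicate 2 values were the lowest, but the fold change of -0.22 ± 0.089 did not pass (SE, limma adjusted p = 0.0948) except without MEF Nf2-/- replicate 1, where it was -0.28 (adjusted p = 0.045). Top2a differed by 0.16 ± 0.087 and Mki67 by 0.089 ± 0.072 (SE, limma adjusted p = 0.196 and 0.372).

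**Figure D4:**
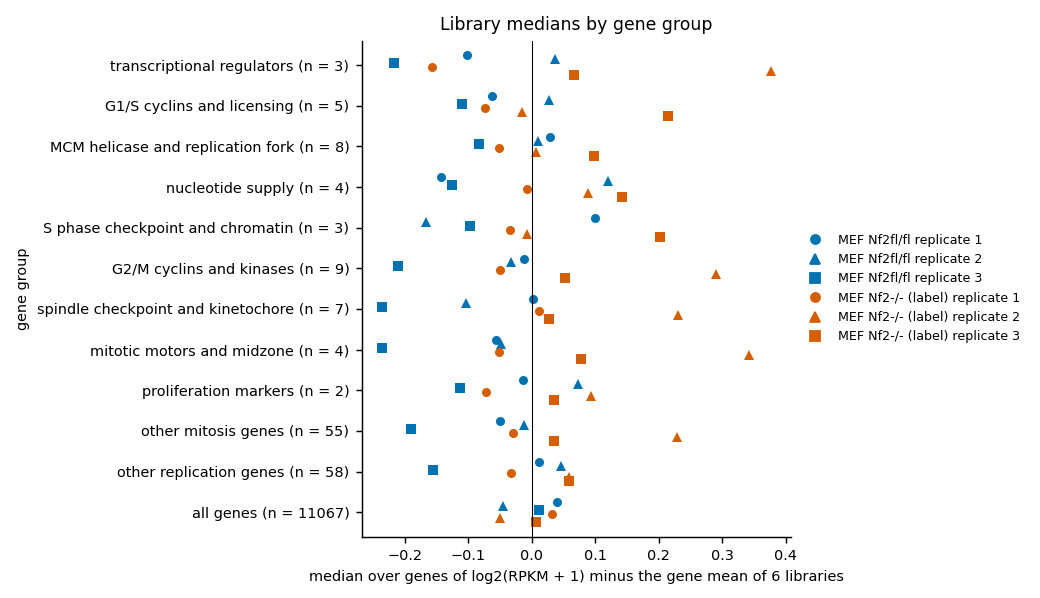
Median deviation of each library, in log2(RPKM + 1) from the mean of the 6 libraries of each gene, for the role groups, for 55 other mitosis genes, 58 other replication genes and all 11067 tested genes. MEF Nf2-/- replicate 2 lies highest in the mitotic groups, at 0.29 for the G2/M genes and 0.34 for the motors, and MEF Nf2fl/fl replicate 3 lies lowest there, at -0.21 and -0.24.

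Genes outside the 46 were read from lists of the same pathway. Of 55 other mitosis genes 15 passed in replicate 2, all higher, where 30.6% of all genes passed and 10.8% were higher, and the median of the 55 log2 fold changes was 0.13. After median centring 23 passed, all higher, and the median was 0.20, where 29.2% of all genes passed. The 3 largest were Depdc1a, a cell division gene, at 0.58 ± 0.090 (SE, limma adjusted p = 0.00512), Anln, the anillin of the cleavage furrow, at 0.55 ± 0.098 (adjusted p = 0.00799), and Kif18a, a kinesin that aligns chromosomes, at 0.53 ± 0.096 (adjusted p = 0.00852). Without MEF Nf2-/- replicate 2 none of the 3 passed (limma adjusted p of 0.057 to 0.13), and without MEF Nf2fl/fl replicate 2 Depdc1a alone of the 3 did not (0.055). Between the lines none of the 55 passed, where 1.06% of all genes did. Of the 55, 12 had an unadjusted p under 0.05 in limma, as did 1097 of all 11067 genes. With the replicate block 4 of the 55 passed, all higher in MEF Nf2-/-, where 7.53% of all genes passed. These were Aspm (5.89, 5.51 and 5.59 against 7.30, 8.71 and 8.10 RPKM), Mad2l1 (8.99, 10.1 and 9.06 against 12.7, 14.0 and 12.3 RPKM), Spc25 (11.2, 12.1 and 11.8 against 15.9, 18.7 and 14.5 RPKM) and Fbxo5 (18.8, 27.6 and 20.9 against 22.9, 37.7 and 30.2 RPKM). In the first 3, of the spindle pole, the checkpoint and the kinetochore, the lines did not overlap, as in 15.1% of all genes.

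Several genes that set cell cycle entry and exit differed more between replicates than Mybl2 did. Of 36 such genes 14 passed in replicate 2, with 4 higher and 10 lower, where 30.6% of all genes passed, 10.8% higher and 19.8% lower. After median centring 13 passed, 5 higher and 8 lower, where 1698 of the 11067 genes were higher and 1536 lower. Between the lines none of the 36 passed, where 1.06% of all genes did. An unadjusted p under 0.05 in limma was found for 2 of them, and for 1097 of all 11067 genes. Myc, the growth factor induced regulator, had 16.8, 45.1 and 22.8 RPKM in MEF Nf2fl/fl against 11.3, 46 and 17.0 RPKM in MEF Nf2-/-, a log2 fold change of 1.41 ± 0.20 (SE, limma adjusted p = 0.00522). The other higher genes were E2f3, Lin9, of the complex that acts with B-Myb, at 0.34 ± 0.076 (limma adjusted p = 0.0159), and E2f5, at 0.29 ± 0.087 (limma adjusted p = 0.0416). Gas1, a growth arrest gene of quiescent fibroblasts, had 17.0, 1.97 and 13.3 RPKM in MEF Nf2fl/fl against 18.8, 2.73 and 12.9 RPKM in MEF Nf2-/- (-2.29 ± 0.17, SE, limma adjusted p = 0.000785). Gas2, also named for growth arrest, had 7.82, 2.35 and 10.7 against 6.54, 0.782 and 3.19 RPKM (-1.63 ± 0.24, SE, limma adjusted p = 0.00548). Gas2, Lin9 and E2f5 did not pass without MEF Nf2fl/fl replicate 2 (limma adjusted p of 0.062, 0.15 and 0.13) or without MEF Nf2-/- replicate 2 (0.068, 0.15 and 0.34), and E2f5 also lost the call without MEF Nf2fl/fl replicate 1 (0.083), MEF Nf2fl/fl replicate 3 (0.059) or MEF Nf2-/- replicate 3 (0.064).

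Of the 7 inhibitors of cyclin-dependent kinases in that list 5 fell in replicate 2, where 19.8% of all genes fell, and apart from Cdkn1c they are a choice made and named after their values were seen. Cdkn1c (p57) had 35.0, 11.4 and 39.3 RPKM in MEF Nf2fl/fl against 30.4, 8.98 and 32.8 RPKM in MEF Nf2-/- (-1.66 ± 0.082, SE, limma adjusted p = 0.000395). Cdkn1b (p27) had 14.4, 7.80 and 15.1 against 19.7, 9.26 and 16.5 RPKM (-0.87 ± 0.088, SE, limma adjusted p = 0.00155). Cdkn2a, which encodes p16 and p19ARF, had 315, 148 and 314 against 278, 120.4 and 244 RPKM (-1.09 ± 0.094, SE, limma adjusted p = 0.000994). In all 3 genes the replicate 2 libraries were the lowest 2 of 6, and they kept this call under all 15 alternatives tried. Cdkn2b (p15) and Cdkn2c (p18) fell by 1.11 and 0.62 on the log2 scale, and like Myc both lost the call without MEF Nf2-/- replicate 2 (limma adjusted p of 0.060, 0.059 and 0.061). The p21 gene Cdkn1a, at 139 to 191 RPKM, and Cdkn2d (p19), at 9.95 to 15.9 RPKM, did not pass. Rb1 and Rbl2, of the retinoblastoma family, and Cdk4 were the other lower genes.

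**Figure D5:**
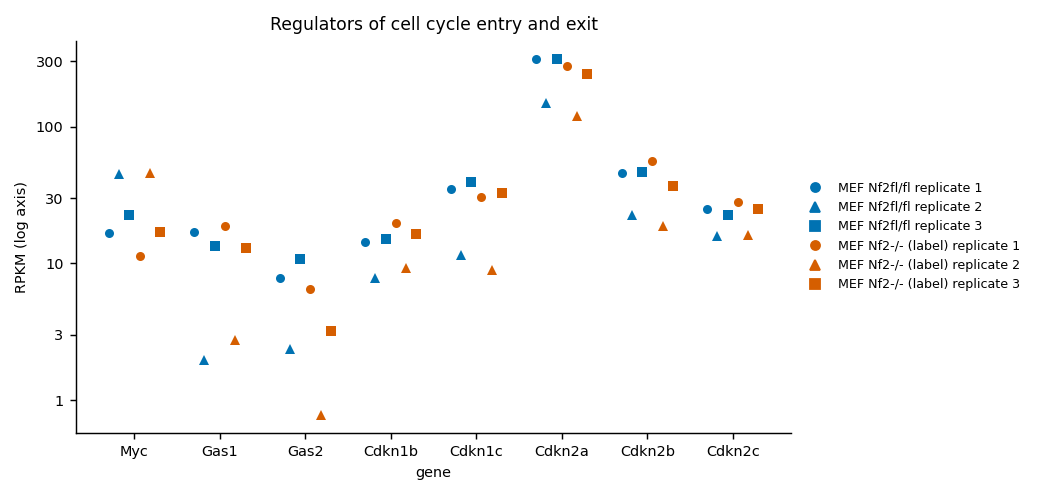
RPKM on a log axis for 8 regulators of cell cycle entry and exit in each library (colour, line; shape, replicate). Both triangles (replicate 2) lie above the other 4 points for Myc and below them for the 7 other genes, as for Gas1 at 1.97 and 2.73 RPKM against 12.9 to 18.8 RPKM.

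Markers of fibroblasts and of other cells also moved with replicate 2. Of 9 tested fibroblast markers 6 were lower in replicate 2, 5 of them past the threshold (Col1a1, Col1a2, Col3a1, Pdgfra and Pdgfrb), where 30.6% of all genes passed and 19.8% were lower. The 3 others were higher, and 1 of them passed after median centring or quantile normalization. The sum of the 10 markers was 1444 and 1855 RPKM in replicate 2 and 1654 to 2554 RPKM in the other libraries. The 6 endothelial markers summed to 3.87 and 4.41 RPKM against 1.37 to 1.81 RPKM, nearly all of it Kdr, and the 7 skeletal muscle markers to 3.11 and 6.63 RPKM against 0.869 to 1.29 RPKM, mostly Acta1. The 6 epithelial markers summed to at most 1.26 RPKM, the 5 neural markers to at most 2.57 RPKM and the 8 macrophage markers, mostly Cd68, to between 7.56 and 12.0 RPKM in all libraries. The defining endothelial genes Pecam1 and Cdh5 and the muscle genes Myog and Des stayed under 1 RPKM in all 6 libraries, and no marker in the table was at 0 in all 6. The part of these shifts in the replicate difference was not tested, and the labels do not say what the marks A, B and 2018 stand for.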

How the data were processed

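RNA of 3 MEF Nf2fl/fl and 3 MEF Nf2-/- libraries was sequenced by GENEWIZ. The authors deposited 1 table of 26231 genes, whose values are taken as RPKM from their steps: with GENCODE vM21 exon lengths (26033 genes) 83.4% to 85.4% of values of up to 20 reads lay within 0.05 of a whole read, where 10% would by chance. The steps gave depths of 13400000 to 72900000 reads, which set the counting error. The submitters' processing notes name mm10, and the aligner, counter and strand setting are not given in the sources used here.

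Values were set to log2(RPKM + 1), kept at 1 RPKM or more in at least 3 libraries (11067 genes) and tested with limma 3.58.1 (R 4.3.3; trend and robust settings; two-sided; Benjamini-Hochberg over all genes; threshold 0.05). Lines were compared without a covariate, as in the study's unpaired test, with the replicate block as the alternative, replicate 2 with a line term, and their interaction in 1 fit. On simulated data limma recovered 86.5% of 200 genes changed between lines and 94% of 200 changed in replicate 2, with 7.84% of the latter calls false. The replicate 2 simulation held no deviation shared by same-numbered libraries, which the real libraries do hold. Its 94% and 7.84% therefore do not give the recovery or the false share of the real replicate 2 calls. The recovered changes had a median of 1.50 on the log2 scale, far above the differences of the members, so these shares do not apply to changes of their size. Same-numbered libraries deviated together (correlations 0.55, 0.82 and 0.52 for replicates 1, 2 and 3), so the fit with the replicate block is given beside line results whose call it changes. The members, lists and comparisons were chosen with earlier results of these data known. Named were Nf2, up to 3 members per role group and comparison with the largest fold change past the threshold (or the most abundant member), and up to 3 genes per other list and direction, besides those marked as named after their values were seen; some genes are not reported here. Of the 46 genes, 14 share over 10% of their 31-base stretches with other genes. Where exons overlap a gene on the other strand (67.3% of Gins2, 29.3% of Kif20a, 17.4% of Ccne2, 12.7% of Cdc25c and 12.5% of Ccna2) the reads may be mixed. Promoters came from RefSeq tables, and figures were drawn with matplotlib 3.10.9.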

Additional observations from a re-analysis of the deposited data

How the results depend on the processing

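Between the lines, none of the 45 cell division genes passed the threshold in limma under any scaling, pseudocount or filter tried or with any library left out, and 1 passed with the replicate block. Over all genes 117 passed, 9 with no filter on low values, 63 with a filter of 5 RPKM, 833 with the replicate block, and from 0 to 484 when libraries or replicate numbers were left out. In replicate 2, 9 of the 45 passed, 14 after median centring, 12 after quantile normalization, 0 with no filter (15 had an unadjusted p under 0.05), 3 without the line term, and from 0 to 9 when libraries were left out. Over all genes 3386 passed in replicate 2, 884 with no filter, 1976 without the line term and from 699 to 3375 when libraries were left out. Of these, 1195 were higher and 2191 lower, 1698 and 1536 after median centring and 1553 and 1412 after quantile normalization. Small line differences turned sign as libraries were left out: Mki67 ranged from -0.018 to 0.052 (-0.0077 and -0.0046 among its values), Top2a from -0.033 to 0.13 (with -0.0031) and Uhrf1 from -0.071 to 0.10 (with -0.054 and -0.050). In replicate 2 Pcna ranged from -0.015, without MEF Nf2fl/fl replicate 2, to 0.11. The cause was not tested. The replicate block changed no other call on the 45 genes than Rrm1. With 3 libraries a line, differences within the 95% intervals given cannot be shown. Each tested gene of the 45 had at least 315 reads in each library, and the part of depth in the calls was not tested.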

Other observations

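Of 58 other genes of DNA replication 10 passed in limma in replicate 2, with 7 higher and 3 lower, where 30.6% of all genes passed. After median centring 14 were higher and 1 lower, where 1698 and 1536 of the 11067 genes were, and after quantile normalization 12 and 2, where 1553 and 1412 were. Prim1, the DNA primase subunit, had 18.4, 23.8 and 16.9 RPKM in MEF Nf2fl/fl against 17.9, 24.5 and 17.1 RPKM in MEF Nf2-/- (log2 fold change 0.44 ± 0.074, SE, limma adjusted p = 0.00659). E2f7, a repressor of the E2F wave, was higher by 0.42 ± 0.094 (SE, limma adjusted p = 0.0161), and so was Tcf19, by 0.42 ± 0.091 (SE, limma adjusted p = 0.0148). Lig1, the ligase that joins Okazaki fragments, had 25.1, 19.9 and 25.9 against 23.0, 18.1 and 24.9 RPKM (-0.37 ± 0.073, SE, limma adjusted p = 0.0117), the lowest libraries being those of replicate 2. Rpa3 (-0.34 ± 0.10, SE, limma adjusted p = 0.0454) and Rfc1 (-0.27 ± 0.075, SE, limma adjusted p = 0.0331) were lower too, and both lost the call after median centring. Each of these named genes lost its call without MEF Nf2fl/fl replicate 2 (limma adjusted p of 0.066 to 0.28) and without MEF Nf2-/- replicate 2 (0.052 to 0.24). Rpa3 and Rfc1 also lost it without MEF Nf2fl/fl replicate 3 (0.10 and 0.060) and without MEF Nf2-/- replicate 3 (0.071 and 0.055), and Rfc1 without MEF Nf2fl/fl replicate 1 (0.069).

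Between the lines none of the 58 passed, where 1.06% of all genes did. An unadjusted p under 0.05 in limma was found for 1 of the 58, and for 1097 of all 11067 genes. With the replicate block 2 passed, where 7.53% of all genes did, both higher in MEF Nf2-/-, among them Rpa3. Rpa3 had 11.5, 9.79 and 13.7 RPKM in MEF Nf2fl/fl against 15.0, 12.8 and 18.2 RPKM in MEF Nf2-/-, with overlap. Btg1, an antiproliferative gene and the only 1 of the 36 control genes past the threshold with the block, was lower in MEF Nf2-/-, with 22.0, 25.7 and 21.4 against 17.6, 17.5 and 12.7 RPKM.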
